A study of Homo sapiens with 15 samples.

Results

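WDR5 is a small scaffold protein of the MLL/SET1 complexes, which place methyl groups on lysine 4 of histone H3 at gene starts. It also belongs to the NSL acetyltransferase complex. In dividing cells it is best known from the starts of active genes, and MYC binds it directly. Endogenous WDR5 was mapped by chromatin immunoprecipitation with sequencing (ChIP-seq) in HEK293 cells, an established human embryonic kidney line, and the members described here are all 17171 peaks of the deposited WDR5 list. The 3 lists of the series hold 20388 peaks in all, and the other lists come from tagged MYC.

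The WDR5 group holds 3 libraries of untransduced HEK293 cells precipitated with a rabbit antibody to WDR5 (Bethyl A302-430A). Its control group holds 3 libraries of the same untransduced cells precipitated with purified rabbit IgG. The series has 15 libraries in 5 groups, and the other 9 are anti-FLAG precipitates of transduced cells: empty vector, WT-MYC or WBM-MYC (each MYC with a FLAG tag). The labels call the libraries of a group independent biological replicates, but 1 list stands for the 3 WDR5 libraries. No spread between replicates can be given. IgG peaks were not analysed here, and the depth of the libraries is unknown. Each interval below is exact, at the 95% level, and covers counting error over peaks only. Neighbouring peaks are not independent, so no test was made.

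Coordinates are hg19, counted from 1. No annotation or genome of that build was used here, so no peak was assigned to a gene, exon or intron. The check of the labelled target is limited in the same way, since a list of positions holds no level of WDR5 itself.

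WDR5 peaks reached 23 chromosomes, the autosomes and X, and were short. Together they covered 7.45 Mb, which is 0.255% of the sequence between the first and last peaks of the chromosomes. Peaks with at least 1 bp in common were joined, which left 15068 merged regions. Their median width was 458 bp and their widest spanned 1828 bp. Regions wider than 1 kb made up 1.49% (1.31 to 1.70%, 225 regions). No peak was listed more than once with the same start and end.

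Peak widths were sorted into 3 classes: narrower than, equal to and wider than the commonest width. Exactly 624 bp was by far the commonest width, with 3482 peaks (20.3%, 19.7 to 20.9%). The next commonest width, 311 bp, had 76 peaks, and widths of 623 and 625 bp had 7 and 13. A lower limit was visible as well: no peak was under 156 bp, and 57 peaks had exactly that width, against a median of 21 peaks at each width between 156 and 624 bp. The commonest width is 4 times the lowest.

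Peaks narrower than 624 bp formed the largest class, with 12233 peaks (71.2%) and a median width of 366 bp. Among narrow peaks the range from 301 to 400 bp was the fullest, with 4788 peaks. Wider peaks numbered 1456 (8.48%) and had a median of 723 bp, and 129 of all peaks exceeded 1000 bp.

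The classes held different places in the list. The peaks are not ordered by position. The rule of their order is not stated, so file order is given as a description only. Wider peaks came early, with 92.9% of them (91.4 to 94.1%) in the first 50% of the list and a median line of 2024. Of the 624-bp peaks, 1.78% (1.37 to 2.28%) lay in that first 50%, and their median line was 14678.5. In the first decile of lines 38.1% of peaks were wider than 624 bp and 0.233% were 624 bp wide. By the last decile the shares were 0.699% and 72.2%. Median width was 557.5 bp in the first decile, dropped to 320 bp in the seventh and was 624 bp in deciles 9 and 10.

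**Figure D1:**
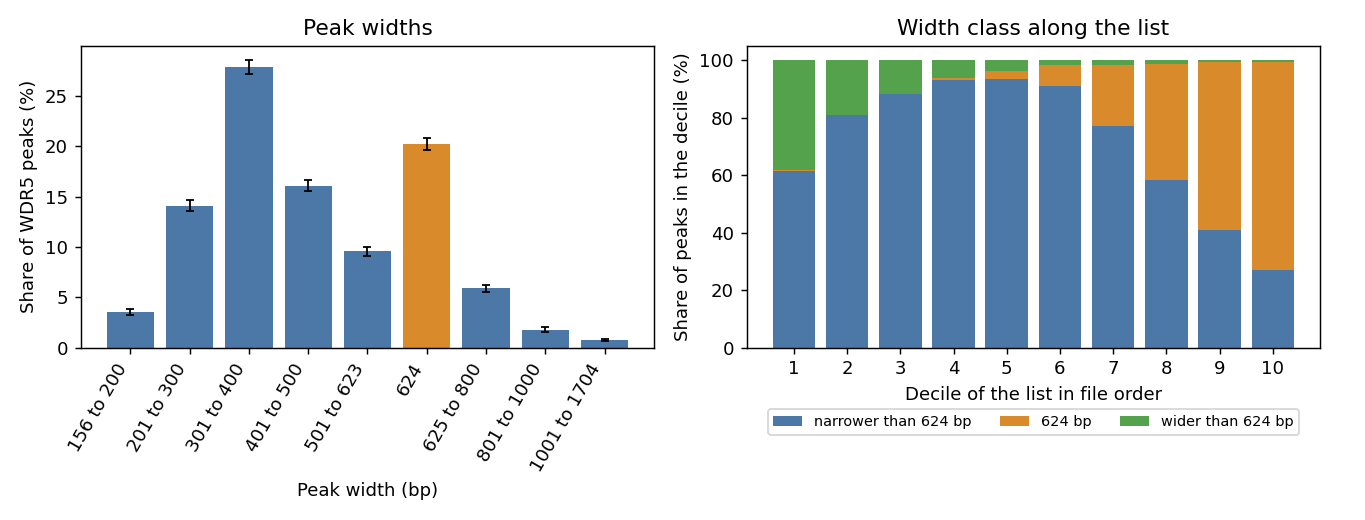
Left, the share of WDR5 peaks (%) in each width range in bp, with 624 bp on its own in orange, and exact 95% intervals as error bars. Right, the shares of narrower, 624-bp and wider peaks in each decile of the list in file order. The 624-bp bar stands at 20.3%, and its class grows from 0.233% of the first decile to 72.2% of the last.

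The widest peaks were spread over several chromosomes. The widest spanned 1704 bp at chr17:79824783-79826486 and stood at line 8002. The next 4 were at chr1:67895282-67896901 (1620 bp, line 83), chrX:41192280-41193860 (1581 bp, line 1263), chr9:135544882-135546456 (1575 bp, line 82) and chr22:39714933-39716494 (1562 bp, line 31). After merging, the longest region was chr1:245133011-245134838, 1828 bp built from 3 peaks. Only 1 other of the 5 longest was built from several peaks, chr19:47615236-47616851, with 1616 bp from 2.

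Both ends of the list show the contrast in width. Its first 5 peaks were chr1:93297306-93298295, chr17:80230828-80231943, chr19:1437986-1439201, chr19:3984808-3985690 and chr19:49121804-49123276, with widths from 883 to 1473 bp. The last 5 were all 624 bp wide and lay on chromosomes 11, 11, 5, 12 and 16. Among the first 5, 3 lay on chromosome 19.

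Nearly 1 peak in 4 overlapped another WDR5 peak. This held for 4116 peaks (23.97%, 23.3 to 24.6%), which formed 2127 overlapping pairs. They collapsed into 2013 merged regions, of which 1925 held 2 peaks, 86 held 3 and 2 held 4. A merged region of 2 peaks had a median width of 704 bp, against 418 bp for a peak on its own. The remaining 13055 peaks overlapped no other.

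The depth of overlap varied widely. The median distance between the centres of a pair was 271 bp, with the middle 50% between 209.5 and 340 bp, and the median stretch in common was 135 bp. In 310 pairs 1 peak lay wholly inside the other. An overlap of at least 50% of the shorter peak was found for 10.8% of all peaks (10.3 to 11.3%). Pairs of narrow peaks were the commonest kind, at 1117 pairs (52.5%), with a median of 78 bp in common. A narrow peak with a 624-bp peak followed at 661 pairs (31.1%), sharing a median of 191 bp. Both peaks had 624 bp in 215 pairs, with centres a median of 235 bp apart.

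Another kind of pair consisted of nearly the same interval called more than once. In 211 pairs (9.92% of pairs, 8.68 to 11.3%) the centres lay at most 50 bp apart, while 53 pairs had centres 50 to 100 bp apart and 475 had 200 to 250 bp. Of these 211 near-double pairs, 190 began at exactly the same base, and 15 ended at the same base. Their widths differed by a median of 12 bp (1 to 99 bp). The peaks of a near-double pair nevertheless stood far apart in the list, by a median of 7715 lines, with median lines of 4097 for the earlier and 12854 for the later. The earliest example was on chromosome 6, where chr6:150284631-150285415 stood at line 236 and chr6:150284631-150285419 at line 14414. None of the 211 pairs held a 624-bp peak, and the pairs were found on all 23 chromosomes. The limit of 50 bp was chosen after the values were seen, and leaving out the later peak of each pair lowered the share of overlapping peaks to 21.8% (21.2 to 22.5%).

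Overlap also differed between width classes, in an order that depended on list position. Over the whole list it was found for 29.2% of 624-bp peaks (27.7 to 30.8%), 11.1% of wider peaks (9.56 to 12.9%) and 2936 of the 12233 narrower peaks (23.2 to 24.8%). In the first 50% of the list, 6.66% of the 1352 wider peaks overlapped another, against 22.7% of narrower and 53.2% of the 62 peaks of 624 bp. In the last 50% the order was the reverse for wider peaks: 69.2% of 104 overlapped another (59.4 to 77.9%), against 25.9% of narrower and 28.8% of 624-bp peaks. Near-double pairs enter these shares. Over the whole list, the 42 pairs of 2 wider peaks had centres a median of 9 bp apart and 658.5 bp in common. The 89 pairs of a narrower and a wider peak had centres 421.5 bp apart. Shares by class were not computed without the near-doubles.

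Distance to the nearest other peak showed the same dependence. Its median over the whole list was 28.3 kb for wider, 4.51 kb for narrower and 6.54 kb for 624-bp peaks. The value for wider peaks came from the first 50%, which holds most of them, with a median of 31.0 kb against 9.96 kb for narrower peaks. In the last 50% the medians were 0 kb for wider, 0.630 kb for narrower and 6.60 kb for 624-bp peaks. A peak at 0 kb overlaps or abuts another, and near-double pairs were counted here as well. Of all peaks, 6958 (40.5%, 39.8 to 41.3%) lay within 1 kb of another.

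Late peaks in the list tended to lie beside earlier ones. In the first decile 1.16% of peaks had a peak of an earlier line within 1 kb, and in the last decile 43.3% did. A late peak has more earlier peaks to lie near, so part of this rise is built in. Distance to the nearest peak of any line, which does not depend on that number, had a median of 22.2 kb in the first decile, 1.37 kb in the eighth and 2.27 kb in the last. With the first 50% of the list alone, 9.38% of peaks overlapped another. Part of that drop is built in too, since a shorter list has fewer peaks to overlap.

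Spacing along the chromosomes fell into a short and a long range. The 15045 gaps between neighbouring merged regions had a median of 57.3 kb (55.2 to 59.3 kb) and a mean of 193.7 kb. The middle 50% of gaps ran from 14.8 to 157.6 kb. On a log scale the fullest class was 56.2 to 100 kb, with 2191 gaps. A second, smaller rise stood below 1 kb: 352 gaps measured 0.562 to 1 kb, 274 measured 1.78 to 3.16 kb, and 377 measured 3.16 to 5.62 kb. The short range was itself uneven, with 207 gaps of 0.0562 to 0.1 kb and 155 of 0.178 to 0.316 kb. In all, 1595 gaps were at most 1 kb (10.6%, 10.1 to 11.1%) and 2453 at most 5 kb (16.3%, 15.7 to 16.9%). Without the gaps of at most 5 kb the median was 79.7 kb.

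Neighbours closer than 5 kb were unevenly spread over distance, with most at the short end. Centre to centre, 646 pairs of neighbouring regions lay 250 to 500 bp apart and 249 lay 500 to 750 bp apart. The number was 297 between 750 and 1000 bp and then declined, to 174 between 1250 and 1500 bp. From 3000 to 5000 bp it stayed between 39.0 and 41.5 per 250 bp. The lower end is shaped by merging, since peaks with centres closer than about their own width overlap and are joined.

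**Figure D2:**
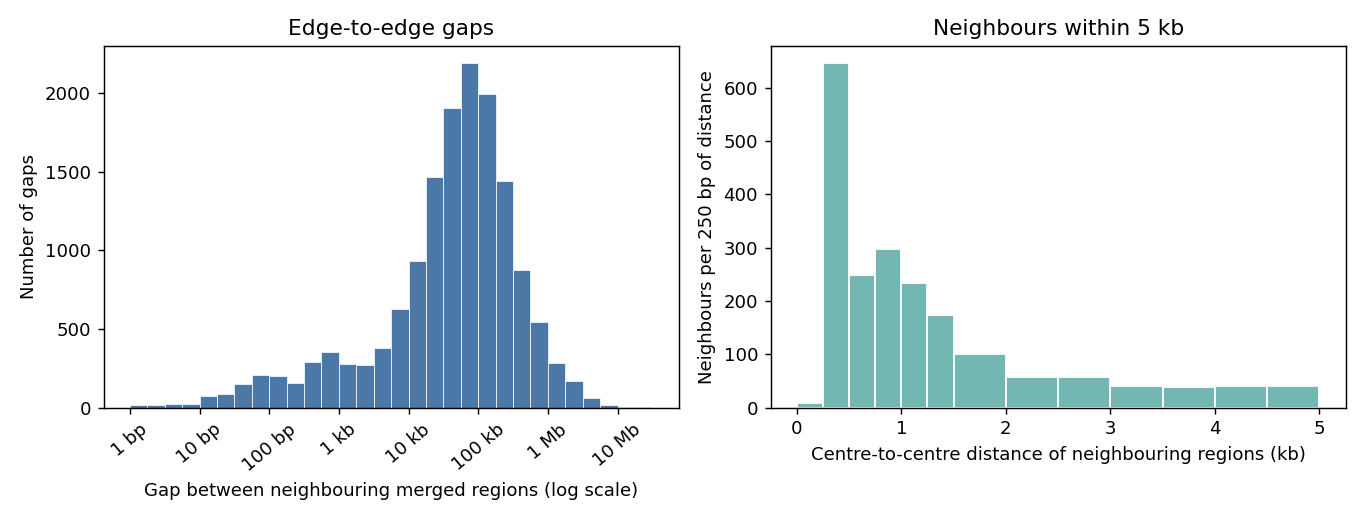
Left, the number of edge-to-edge gaps between neighbouring merged WDR5 regions in equal steps of a log scale, with the 10 gaps of 0 bp in the first bar; the main rise peaks at 56.2 to 100 kb and a lesser one lies under 1 kb. Right, neighbouring regions within 5 kb by centre-to-centre distance, as the number per 250 bp of distance, which is highest at 250 to 500 bp with 646.

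Long gaps tended to be followed by long gaps, while the shortest gaps were not followed by the shortest. After the 3762 shortest gaps (up to 14.8 kb) the next gap had a median of 44.0 kb, and after gaps of 14.8 to 57.3 kb it had 40.6 kb. It was 64.0 kb after gaps of 57.3 to 157.6 kb and 96.5 kb after longer ones. Over all 15022 consecutive pairs of gaps the rank correlation was 0.15 (Spearman), which is weak. Over the 10518 consecutive pairs in which both gaps exceeded 5 kb, it was 0.29. Both are descriptions over gaps that share their regions.

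A few long empty stretches held much of the remaining length. Gaps over 1000 kb numbered 540 (3.59%, 3.30 to 3.90%) and contained 42.4% of all gap length. The longest ran over 27.8 Mb at chr9:38621078-66458267. It was followed by 23.7 Mb at chr1:121261649-144931791, 15.2 Mb at chrX:84499409-99664934, 14.8 Mb at chr16:31885722-46655008 and 12.5 Mb at chrX:24712231-37208499. As background, chromosomes 1, 9 and 16 carry large blocks of repeated DNA beside their centromeres, where short reads cannot be placed uniquely. Unmappable sequence and lack of WDR5 cannot be told apart from a peak list.

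Only 52 peaks (0.303%) had no other peak within 1000 kb. The most isolated, chr9:66458268-66458655, lay 4.86 Mb from the next and stood at line 2470. It is also the peak at the far end of the longest gap.

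Density differed several-fold between chromosomes. Since no hg19 chromosome lengths were used, density was taken over the span from the first to the last peak. Over all 23 chromosomes it was 5.16 merged regions per Mb. Chromosome 19 was the densest, with 1068 regions or 18.2 per Mb (17.1 to 19.3). Next were chromosomes 17, with 12.3 per Mb (11.6 to 13.1), and 22, with 10.7 (9.58 to 11.8). The others reached at most 6.48, the value of chromosome 1. That place depended on long gaps: with gaps over 3 Mb left out of the span, chromosome 16 had 8.98, 11 had 7.72 and 1 had 7.65. Chromosomes 19, 17 and 22 stayed the densest, with 19.5, 13.6 and 11.7.

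At the low end stood chromosome X with 378 regions or 2.50 per Mb (2.25 to 2.76), 7.26-fold below chromosome 19. Chromosomes 4, with 2.89, and 18, with 3.03, came just above it. Sorted by density, 20 of the 22 pairs of successive chromosomes had intervals that overlapped. The exceptions were chromosome 19 above 17 and chromosome 22 above 1. The lowest place of X depended on its long gaps: with gaps over 3 Mb left out of the span, X had 4.13 regions per Mb and chromosome 4 was lowest, with 3.64.

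Regions followed gene number more closely than length. Across the 23 chromosomes, the number of merged regions and the number of protein-coding genes in the RefSeq table of GRCh38.p14 had a Pearson correlation of 0.96 (Spearman 0.95). With span in Mb it was 0.61 (Spearman 0.52). These are descriptions over chromosomes, which differ in size, and the table was used only for which chromosome a gene is on. Over all chromosomes there were 0.754 regions per protein-coding gene. The ratio was highest on chromosome 10, at 0.946 (0.876 to 1.02), and on chromosome 13, at 0.911 (0.812 to 1.02). On chromosome 19, the densest, it was 0.736 (0.693 to 0.782), close to the value of all chromosomes together.

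Chromosome X had 0.446 regions per gene (0.402 to 0.493), the lowest ratio of the 23. The next lowest was chromosome 11, with 0.611 (0.569 to 0.655), and the intervals did not overlap.

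**Figure D3:**
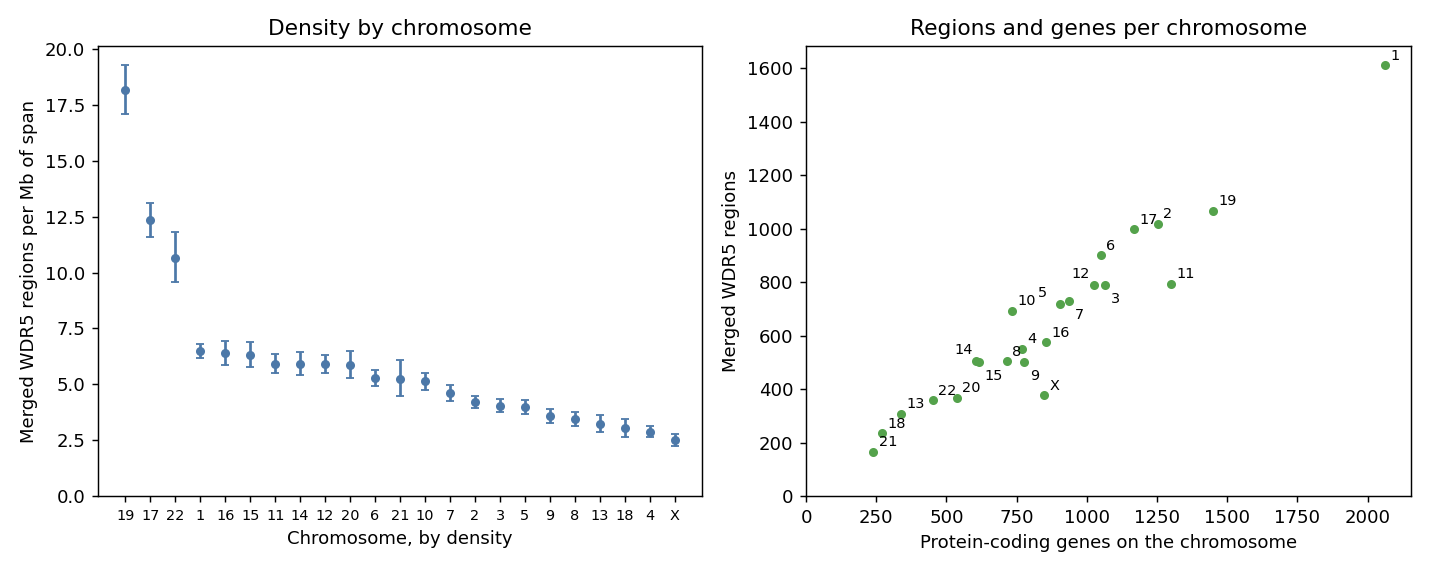
Left, merged WDR5 regions per Mb of span on each chromosome, with exact 95% Poisson intervals as error bars; chromosome 19 is highest at 18.2 and X lowest at 2.50. Right, merged regions against protein-coding genes (RefSeq, GRCh38.p14), 1 point per chromosome, where X lies low for its 848 genes with 378 regions.

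The X chromosome also stood apart in width class. Of its 433 peaks, 180 were 624 bp wide (41.6%, 36.9 to 46.4%), against 15.8 to 25.1% on the 22 autosomes. Wider peaks made up 2.31% (1.11 to 4.21%, 10 peaks), against 4.04 to 15.7%. X peaks came later in the list, with 68.8% (64.2 to 73.2%) in its last 50%. Within that last 50% the share of 624-bp peaks was 59.4% on X (53.6 to 65.0%) and 39.1% on the autosomes (38.1 to 40.2%). Over all chromosomes, the share rose within that part of the list, from 7.05% in decile 6 to 72.2% in decile 10. The split therefore does not hold list position fixed, and the X share was not compared by decile. Over the whole list, the share of 624-bp peaks varied along chromosome X. In the 7 stretches of 10 Mb on X with at least 30 peaks, the share ran from 26.8% at 50 to 60 Mb up to 56.4% at 130 to 140 Mb, and the median over all 225 such stretches of the genome was 19.1%. All 7 lay above that median, but the intervals of 3 included it (50 to 60, 70 to 80 and 110 to 120 Mb). The highest autosomal stretch reached 34.6%. The number of X copies per cell was not measured here, and its part in these shares was not tested.

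Wide peaks varied between autosomes. They formed 15.7% of peaks on chromosome 21 (10.9 to 21.5%), 14.4% on 13, 13.3% on 5 and 12.5% on 6. On chromosomes 18 and 19 they formed 4.09 and 4.04%. Among the 225 stretches of 10 Mb, chromosome 6 from 150 to 160 Mb had the highest share, 29.9% (19.97 to 41.4%, 23 of 77 peaks), and the median was 8.51%. That stretch was picked as the extreme of many.

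At the scale of 1 Mb, WDR5 regions gathered in a minority of the genome. Of 2941 bins between the first and last peaks, 696 (23.7%) held no region, the median held 3 and the mean was 5.12 (SD 6.17). The variance was 7.44 times the mean. The 460 fullest bins, 15.6% of them, were enough to hold 50% of all regions. At least 20 regions were found in 116 bins, 28 of them on chromosome 19, 17 on chromosome 17 and 16 on chromosome 1. Chromosome 22 had the smallest share of empty bins (5.71%) and X the largest (42.1%).

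The fullest bin was chromosome 19 from 1 to 2 Mb, with 57 regions (43.2 to 73.9). Chromosome 17 from 7 to 8 Mb held 48, chromosome 19 from 49 to 50 Mb held 46, and chromosome 17 from 79 to 80 Mb held 41. The next were chromosome 11 from 65 to 66 Mb, chromosome 16 from 2 to 3 Mb and chromosome 19 from 18 to 19 Mb, with 40 each. Their intervals overlap, so the order among them is not set beyond counting error.

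**Figure D4:**
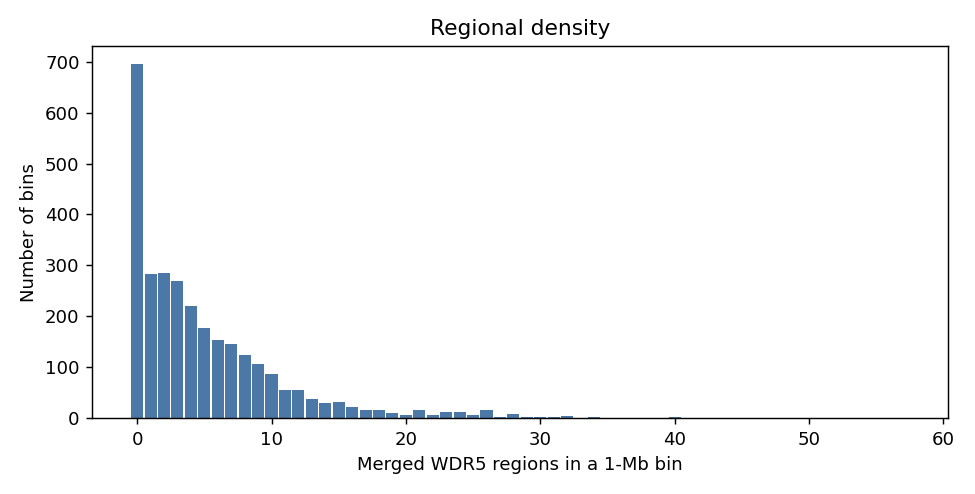
Number of 1-Mb bins (vertical axis) by the merged WDR5 regions they hold (horizontal axis), over 2941 bins. The tallest bar is the 696 bins without a region, and a thin tail runs to 57.

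In fixed windows of 100 kb, most occupied windows held a single region. This was the case for 4820 of 8517 (56.6%), while 337 held at least 5 and 12 held at least 10. The fullest was chr19:1200001-1300000, with 15 regions (8.40 to 24.7) and a median gap of 1.60 kb. It was followed by chr7:27100001-27200000 with 12, and chr17:79800001-79900000 and chr19:56100001-56200000 with 11 each. Of the 8 windows with 10 regions, the first 6 by position were chr1:800001-900000, chr1:155100001-155200000, chr1:155200001-155300000, chr7:27200001-27300000, chr17:8000001-8100000 and chr17:46600001-46700000. Chromosomes 19 and 17 had 68 and 44 of the 337 windows with at least 5.

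The 2 windows on chromosome 7 adjoin, and fixed borders cut through their regions. With windows begun at each region instead, the densest 100 kb of the genome was chr7:27135672-27225907, with 20 regions (12.2 to 30.9) and 21 peaks. The next was chr19:1172971-1271671 with 16. With 13 regions each came chr1:839997-937453, chr12:6960334-7053890 and chr12:54367172-54448248, and with 12 chr1:155145532-155243544, chr2:176944995-177043207 and chr7:99679164-99775575. These windows were added after the fixed ones were seen.

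Close clusters were defined as chains of at least 3 merged regions with gaps of at most 5 kb. There were 301, on all 23 chromosomes, and they held 999 regions (6.63%, 6.24 to 7.04%). Most were small: 232 had 3 regions, 53 had 4, 10 had 5, 5 had 6 and 1 had 11. A further 1755 chains had 2 regions, with a median span of 1.37 kb. Clusters had a median span of 4.50 kb, of which peaks covered a median of 33.4%. Chromosome 19 had 51 clusters with 15.3% of its regions (13.2 to 17.6%), whereas chromosome 9 had 2 clusters with 1.39% (0.561 to 2.85%) and X had 1 with 0.794% (0.164 to 2.30%).

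Peaks in clusters came later in the list than the others, and over the whole list a smaller share of them was wide. The 1103 clustered peaks had a median line of 11214, against 8402.5 outside clusters, and a median width of 396 bp, against 420.5 bp. Of clustered peaks, 4.71% were wider than 624 bp (3.54 to 6.14%), against 8.74% outside (8.31 to 9.19%). Over the whole list the 624-bp class was more frequent in clusters, at 24.2% (21.7 to 26.8%), than outside them, at 20.01% (19.4 to 20.6%). That order depended on list position. In the last 50% of the list, 7.72% of 624-bp peaks were clustered (6.85 to 8.67%), against 8.99% of narrower peaks (8.21 to 9.81%). In the first 50% the shares were 4.84% of 62 peaks (1.01 to 13.5%) and 4.59% (4.12 to 5.10%). With the first 50% of the list alone, the same rule found 17 clusters, with 0.636% of the regions. A shorter list holds fewer chains whichever peaks are left out, so part of this drop is built in.

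The largest cluster lay at chr7:27181435-27212818, 11 regions from 12 peaks over 31.4 kb, and no other cluster had more than 6. Its median gap was 2655.5 bp, the shortest 712 bp and the longest 4415 bp. Of its 12 peaks, 6 were 624 bp wide, and the others measured 314 to 476 bp, so none was wide. In the list they ran from line 5167 to line 17024, with a median of 14135.5. Gaps of 10.6 kb before and 6.36 kb after it separated the cluster from further regions, and 22 regions lay within 100 kb of its centre. Beyond that the surroundings were thin: 250 kb on either side added none.

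The cluster of 6 regions with the earliest peak was chr19:5686671-5698227, whose 7 peaks ran from line 11 to line 16230. It held a 1024-bp peak, 5 peaks of 624 bp and 1 of 281 bp. At chr6:85473240-85483860, 6 regions from 7 peaks lay in a thin neighbourhood, with gaps of 535.8 kb before and 675.9 kb after. The cluster at chr3:193851895-193859799 packed 6 regions into 7.91 kb, all peaks being between 211 and 405 bp wide. At chr2:172959544-172968002, 6 regions spanned 8.46 kb. The last with 6 was chr17:46681287-46692163, over 10.9 kb, inside the fixed window on that chromosome named above.

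Among clusters of 5 regions the fullest were chr1:234742815-234748853 and chr17:4842976-4853616, both with 7 peaks. Peaks covered 59.1% of the span of the first, which made it the most filled of the 10 largest clusters, and 26.0% of the second. The other clusters of 5 regions among the 10 largest were chr17:36901947-36908914 and chr2:232571391-232578818, with 6 peaks each. Ranked by peaks instead of regions, the same 10 clusters led.

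**Figure D5:**
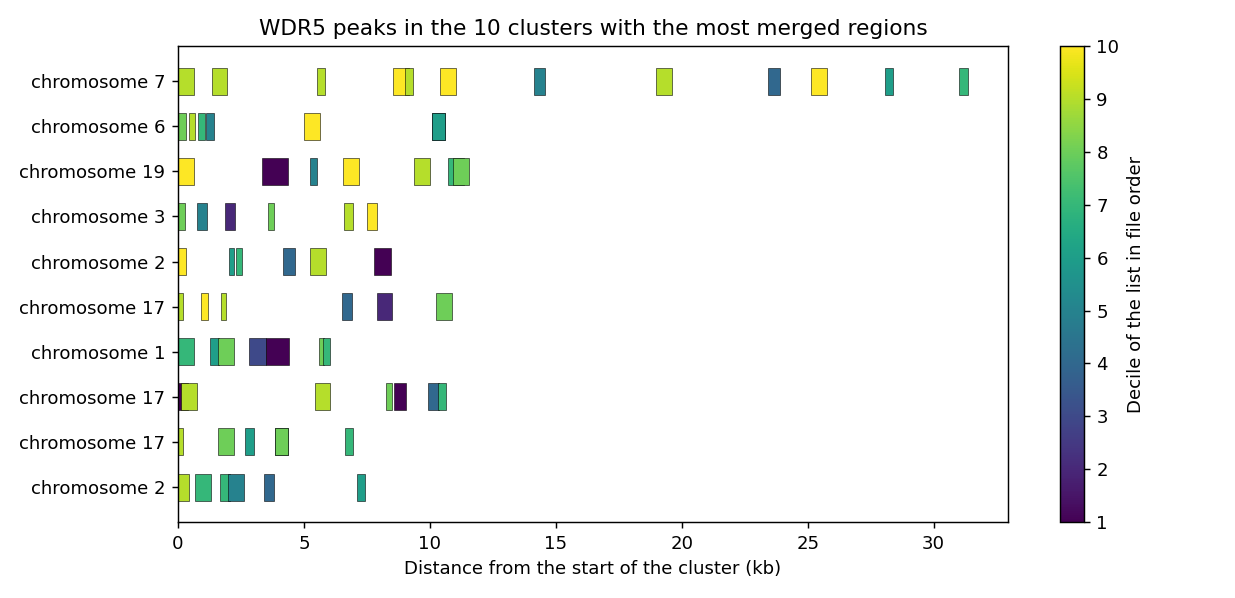
Each row is 1 of the 10 clusters with the most merged regions, and each box is a WDR5 peak drawn to scale by its distance in kb from the start of the cluster, coloured by its decile in file order. The chromosome 7 cluster in the top row spans 31.4 kb, while each other row ends within 12 kb, and early and late peaks stand side by side.

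MLL-type complexes with WDR5 are best known for methylating histones at the HOX genes, which set position along the body axis. In the RefSeq table of GRCh38.p14, the 39 protein-coding HOX genes lie in 4 groups, HOXA on chromosome 7, HOXB on 17, HOXC on 12 and HOXD on 2. Each of these chromosomes holds at least 1 of the dense stretches named above, and many regions elsewhere. Chromosomes without a HOX group, such as 1, 6 and 19, hold named stretches too. A shared chromosome therefore does not link a stretch to the HOX genes. Whether those stretches lie on the HOX genes was not analysed here, since no hg19 annotation was used.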

How the data were processed

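The authors deposited 3 peak lists with 3 columns each (chromosome, start and end in bp, an other kind of value than a score), and hg19, Bowtie 0.12.7 and CASAVA 1.8.2 are named in the submitters' processing notes. The sources used here do not give the peak caller, its threshold, the use of the IgG libraries or how replicates were pooled, so a site without a peak may have been bound below the threshold. Peaks with at least 1 bp in common were merged. Gaps, chains (gaps of at most 5 kb, at least 3 regions), 100-kb windows and 1-Mb bins were computed in Python 3.11.15 with pandas 2.3.3 and scipy 1.17.1, and the code was tested on simulated intervals. Shares have Clopper-Pearson intervals and counts exact Poisson intervals. The loci named are the 10 clusters with the most regions and with the most peaks, the 10 fullest fixed windows, the 5 widest peaks, the 5 longest merged regions, the 5 longest gaps and the first and last 5 peaks. Other loci were chosen after their values were seen. The members and lists were chosen with earlier results of these data known. Depth is unknown.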

Additional observations from a re-analysis of the deposited data

How the results depend on the processing

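The deposited list does not separate replicates, so none could be left out, and the planned share of peaks at gene starts was not run for want of an hg19 annotation. No paired analysis was possible because 1 list stands for all 3 WDR5 libraries. With the first 50% of the list alone, 9.38% of peaks overlapped another, 8181 merged regions remained, the median gap was 101.9 kb, 0.636% of regions were clustered, and chromosomes 19 and X had 9.47 and 0.939 regions per Mb. Fewer peaks by themselves lower overlap, clustering and density and widen gaps. How much of each change goes beyond that was not tested. Demanding an overlap of 50% of the shorter peak gave 10.8% overlapping peaks, and leaving out the later peak of near-double pairs gave 21.8%. The median gap was 79.7 kb without gaps of at most 5 kb. Chaining at 1 and 10 kb put 2.13 and 11.2% of regions in clusters, and merging peaks up to 100 bp apart first put 5.21% there. At 10 kb the largest cluster was still on chromosome 7, with 14 regions, but at 1 kb it was chr8:95907237-95909139, with 4, and with the first 50% of the list chr12:26275474-26279638, also with 4. The fullest 500-kb window, on chromosome 19, held 41 regions, and the fullest 50-kb window, chr7:27150001-27200000, held 11. Per Mb, chromosomes 19 and X had 20.2 and 2.86 peaks, and 19.5 and 4.13 regions without gaps over 3 Mb. The share at the commonest width was 21.4% within 10 bp of it and 18.9% among peaks that overlap no other. Autosomes alone, centre-to-centre gaps and merging of abutting peaks changed their results by less than the interval or 1.5 times. The highest count in a window also changed by less than 1.5 times with 50-kb windows, displaced windows, windows begun at each region and windows of peaks. A 50-kb window covers a shorter stretch, so its count is not like for like. The place of the fullest window did change. It moved from chromosome 19 to chromosome 7 with 50-kb windows, displaced windows (chr7:27150001-27250000, with 20 regions) and windows begun at each region.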
